A study of Homo sapiens with 15 samples.

Results

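Ribosome biogenesis and nucleolar genes of the kind that MYC is known to drive were followed in 2 human multiple myeloma cell lines grown with or without bone marrow stromal cells. The genes were taken by symbol from a list of 41, and all 41 were found among the 20468 genes of both deposited expression tables. RNA-Seq had been made from MM.1S cells in 3 libraries per condition and from RPMI8226 cells in 2, which gave 15 libraries. Cells were kept for 48 h in monoculture (MONO), in the upper transwell above HS5 stromal cells (TSW), or in the lower chamber in contact with HS5 cells (CO). By the methods, the transwell was placed into wells whose lower chamber held both HS5 and myeloma cells. TSW cells therefore lay above both, and which TSW and CO libraries shared wells is not stated. HS5 is an immortalized human marrow stromal line, and no group received a drug. RNA came from sorted cells in every group (live, CD90-CD38+), but a trypsin step before the sort is described for coculture only, without saying if TSW was included, so CO differed from MONO in handling as well as in contact. The comparison of TSW with MONO asks what soluble factors of the stromal coculture do, that of CO with MONO adds contact, and that of CO with TSW asks for contact.

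Ribosome production begins in the nucleolus, where RNA polymerase I transcribes the ribosomal RNA precursor, small nucleolar ribonucleoproteins (snoRNPs) modify and help to fold it, and assembly factors cleave it and build the small (40S) and large (60S) subunits. MYC activates many of these genes, often through the E-box, a short DNA motif bound by MYC with its partner MAX. Myeloma cells carry a heavy load of antibody synthesis, and deregulated MYC is common in the disease.

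Values are RPKM, which scale the PETs (pair-end tags, here read pairs) of a gene by its transcript length and by the depth of the library. Depth ranged from 9008909 to 19050584 PETs per library, with the lowest in MM.1S MONO replicate 1. That library also stood apart by transcript length: across genes, which are not independent replicates, the rank correlation of its deviation from the mean of the MM.1S libraries with length was -0.51, against 0.41 in CO replicate 1, 0.32 in CO replicate 3 and -0.08 to 0.21 in the other 6 libraries. The same correlation with GC content was 0.40 in MM.1S MONO replicate 1, 0.33 in MONO replicate 2, -0.39 in TSW replicate 3, -0.49 in CO replicate 1 and -0.44 in CO replicate 3, against -0.15 to 0.17 in the other 4. In RPMI8226 it was 0.43 in TSW replicate 2, -0.30 and -0.25 in CO and -0.07 to 0.15 in the other 3, and that with length ran from -0.15 to 0.25. A further pattern, chosen after its values were seen, set MM.1S MONO replicate 2 and both RPMI8226 TSW libraries apart. They held 84.2, 94.8 and 93.6 RPKM of the ribosomal pseudogene RPS14P3 and 1.44, 2.22 and 1.53 of the transfer RNA gene trnN, whereas the other 12 held 2.20 to 6.44 and 82.3 to 587. The RPMI8226 comparisons with TSW carry this split between the groups, and that of CO with MONO does not. Since both TSW libraries share it, leaving out 1 does not remove it from those comparisons, and whether these 3 libraries were processed in another way was not tested. Values of named genes that rest on single libraries are therefore given with and without them, while counts in the lists outside the 41 are from all libraries.

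Promoter sequences are shown because the E-box CACGTG is the motif through which MYC is known to act, and they come from RefSeq (GRCh38.p14). Promoter windows of 250 bases before and 50 after the start were found for 33 of the 41 genes, in 41 entries. Both strands were searched. An E-box lay in 15 of the 41 entries (36.6%) and in 7.26% of all 35116 promoters of the same length. Those promoters were not limited to the genes tested here or matched to the 41 genes by expression. With only the bases before the start searched, the share fell to 9.76% against 6.34% of all promoters, because 11 of the 16 E-boxes of these genes (68.8%) lay after the start, compared with 11.1% over all promoters. The variant E-box CACGCG, which reads CGCGTG on the other strand, was found in 22% of the entries and in 11.4% of all promoters, the NF-Y motif CCAAT, or ATTGG on the other strand, in 26.8% and 34.6%, an ETS motif with the GGAA core in 17.1% and 4.14%, and a palindrome of 10 bases in 2.44% and 0.424%. None of these other motifs holds the letters of the E-box. The promoters of UTP20 and RRP9 are printed because their E-boxes lie before and across the start, and the sites of 30 bases in MRTO4, FBL, NOP14 and PES1 because theirs lie just after it, as most did. Capitals mark the E-box, and a match of letters is a description and not a measured binding site.
UTP20, chr12:101279855-101280104, plus strand, E-box at base -10: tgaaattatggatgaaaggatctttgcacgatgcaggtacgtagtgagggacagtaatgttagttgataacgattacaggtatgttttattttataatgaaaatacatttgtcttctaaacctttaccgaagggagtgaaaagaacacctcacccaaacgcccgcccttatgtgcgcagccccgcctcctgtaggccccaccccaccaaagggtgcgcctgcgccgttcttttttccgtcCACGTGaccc
RRP9, chr3:51941904-51942154, minus strand, E-box at base -5: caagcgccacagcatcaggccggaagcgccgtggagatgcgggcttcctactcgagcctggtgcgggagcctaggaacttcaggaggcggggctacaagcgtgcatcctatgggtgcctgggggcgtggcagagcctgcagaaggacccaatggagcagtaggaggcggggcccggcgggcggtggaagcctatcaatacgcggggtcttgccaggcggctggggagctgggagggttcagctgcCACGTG
MRTO4, chr1:19251807-19251836, plus strand, E-box at base 15: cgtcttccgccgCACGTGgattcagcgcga
FBL, chr19:39846356-39846385, minus strand, E-box at base 7: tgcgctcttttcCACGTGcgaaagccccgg
NOP14, chr4:2963374-2963403, minus strand, E-box at base 16: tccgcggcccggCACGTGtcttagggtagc
PES1, chr22:30591880-30591909, minus strand, E-box at base 14: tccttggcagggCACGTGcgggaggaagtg

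Conditions were compared within each line by limma on log2(RPKM + 1), over the 10153 genes of MM.1S and the 10319 of RPMI8226 with a mean of at least 1 RPKM, and all 41 genes were tested in both. Calls needed a fold change over 1.5 and an adjusted p (Benjamini-Hochberg) under 0.05, and genes past the adjusted p alone were counted as well. Errors after ± are standard errors of the log2 fold change, which understates changes of genes with few RPKM. The labels do not say that replicates were separate cultures, so p-values measure only the spread between these libraries. The tables of the lines were normalized separately, and no test was made across lines.

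In RPMI8226 the nucleolar genes fell in both kinds of coculture. Between TSW and MONO, 36 of the 41 were called lower and 0 higher, beside 17.9% and 14.5% of all genes tested, and all 41 were lower at adjusted p alone, beside 38.0% lower and 29.0% higher (0 of the 41) of all genes. Their median log2 fold change was -0.93, against -0.079 over all genes tested. Between CO and MONO, 39 were called lower and 0 higher, beside 22.9% and 16.4% of all genes, and again all 41 were lower at adjusted p alone, where the background was 41.7% lower and 30.3% higher. The median reached -1.32, compared with -0.094 over all genes. Both comparisons use the same MONO libraries. The standard deviation between replicates of the median log2 level of the 41 genes was 0.0337 for TSW and MONO and 0.0608 for CO and MONO, well under the changes. In every 1 of the 41 genes, both TSW and both CO values lay below both MONO values. The share of all genes tested that were separated in this way is not given here. In bulk RNA, fewer cells of a type and less RNA per cell cannot be told apart. RPKM are also relative to the depth of each library, so amounts of RNA per cell were not measured.

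The genes not called in RPMI8226, named after their values were seen, missed only the fold change. Between TSW and MONO these were POLR1A (-0.56), HEATR1 (-0.53), BYSL (-0.45), DDX21 (-0.25) and GNL3 (-0.19), the last being the smallest change of the 41, and the largest was that of NPM1 (-1.62). Without MONO replicate 1 or TSW replicate 2 neither DDX21 nor GNL3 passed the adjusted p in TSW, nor did GNL3 without MONO replicate 2, while POLR1A was called without MONO replicate 1 (-0.63) and HEATR1 without TSW replicate 1 (-0.60). Between CO and MONO they were GNL3 (-0.58) and DDX21 (-0.44), and changes ranged from -2.22 for MRTO4 to -0.44 for DDX21, with GNL3 called without MONO replicate 2 (-0.61). GNL3 encodes nucleostemin, a GTPase of stem and cancer cell nucleoli, and DDX21 an RNA helicase that also acts at RNA polymerase II genes. Added up, the 41 genes held 3613 and 3499.8 RPKM in the MONO libraries of RPMI8226, 1739 and 1743 in TSW, and 1419.6 and 1422 in CO. As a share of the summed RPKM of all genes this was 0.873% and 0.844%, 0.409% and 0.404%, and 0.339% and 0.338%.

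**Figure D1:**
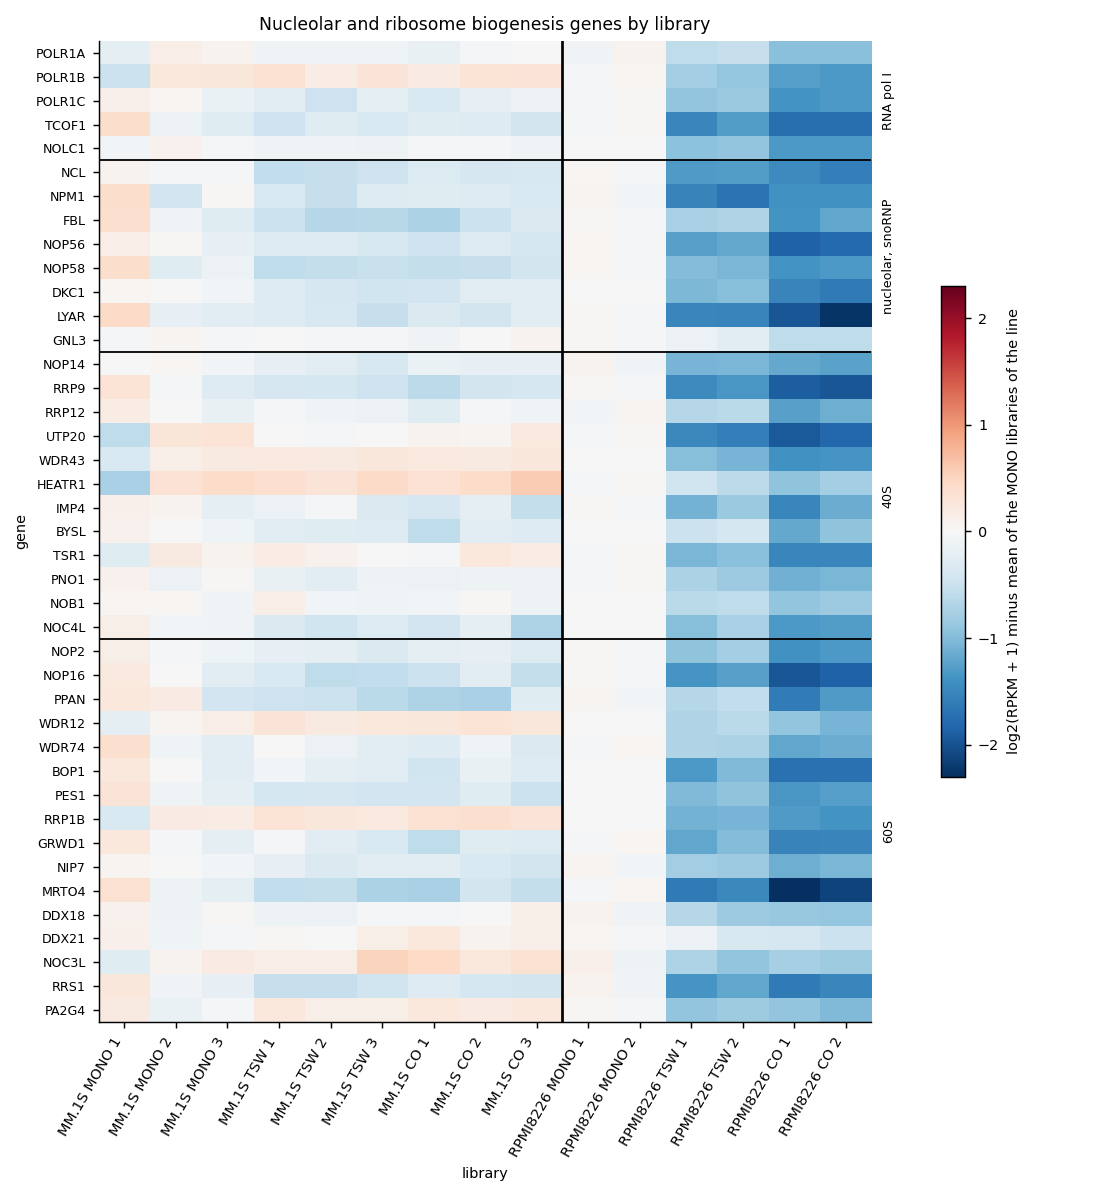
Level of the 41 genes in each of the 15 libraries as log2(RPKM + 1) minus the mean of the MONO libraries of the same line, with genes ordered by role. The RPMI8226 TSW and CO libraries are lower than MONO in all 41 genes, whereas MM.1S shows smaller shifts in both directions.

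In MM.1S the shifts were smaller. Between TSW and MONO, 2 of the 41 genes were called lower and 0 higher, beside 4.16% and 6.48% of all genes tested, and at adjusted p alone 13 were lower and 0 higher, beside 12.9% and 14.4%. Between CO and MONO limma called 0 lower and 0 higher, beside 4.65% and 7.13% of all genes, and the fit by voom on recovered PETs called 1 lower. At adjusted p alone 16 were lower and 0 higher, beside 15.0% and 16.2% of all genes, and 22 had an unadjusted p under 0.05. The medians were -0.22 and -0.24, against 0.014 and 0.0053 over all genes, with a standard deviation between replicates of the median level of 0.106 and 0.105. HEATR1 had the largest positive value in both comparisons (0.37 and 0.44, not past the adjusted p), but without MONO replicate 1 it had -0.0052 and 0.066, and PA2G4 was then the largest (0.27 and 0.33). The largest negative values were those of MRTO4 in TSW (-0.61) and PPAN in CO (-0.58), and without that library those of NCL (-0.49) and PPAN (-0.46). These genes summed to 4035, 3386 and 3347 RPKM in MM.1S MONO, 3041, 2909 and 2944 in TSW, and 2994, 3101 and 3099 in CO. All TSW and CO sums lay below the lowest MONO sum, and the highest MONO sum was that of replicate 1. This gap lay in the 8 abundant nucleolar and snoRNP core genes. They summed to 2174, 1655 and 1688 in MONO, 1353, 1295 and 1336 in TSW, and 1359.8, 1406 and 1449 in CO. The sums of the other genes overlapped, at 1861, 1731 and 1658 in MONO, 1688, 1614 and 1608 in TSW, and 1634, 1695 and 1649.5 in CO.

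The MM.1S counts depended on single libraries. For TSW against MONO, the 13 lower at adjusted p alone became 8 without MONO replicate 2 (19.5%, beside 10.4% of all genes in the same fit), 6 without TSW replicate 1 (14.6% and 8.11%), 4 without TSW replicate 2 (9.76% and 7.32%) and 3 without TSW replicate 3 (7.32% and 7.55%). The 2 called became 0, 4 and 6 without MONO replicates 1, 2 and 3, 1 without TSW replicate 2 and 0 without TSW replicate 3, while the share of all genes called lower ran from 3.95% to 5.74%. For CO against MONO, the 16 became 2 without CO replicate 1 (4.88%, beside 8.8% of all genes), 10 without CO replicate 2 (24.4% and 13%) and 5 without CO replicate 3 (12.2% and 9.05%). The 0 called became 2 and 4 without MONO replicates 2 and 3, and 1 and 2 without CO replicates 2 and 3, with 3.87% to 6.68% of all genes called lower. A fit of only the 2 conditions compared left 6 genes past the adjusted p in TSW (14.6%, beside 9.36% of all genes) and 1 in CO (2.44% and 9.04%), and with no expression filter there were 10 in each (24.4%, beside 8.43% and 9.64%). So without TSW replicate 3 in TSW, and in CO without CO replicate 1 or with only the 2 conditions fitted, the share of the 41 genes was below that of all genes. The 0 higher at adjusted p alone became 1 in each comparison without MONO replicate 1, 1 in CO without MONO replicate 2, 1 in TSW and 3 in CO without MONO replicate 3, 1 and 4 with quantile normalization, and 2 in CO with GC content and length corrected by loess. Without MONO replicate 1, the library of lowest depth, 12 were lower in either comparison (29.3%, beside 16.9% and 18% of all genes), and the medians were -0.18 and -0.17. Without MONO replicate 3 the counts rose, to 18 in TSW (43.9%, beside 15.6% of all genes) and 20 in CO (48.8%, beside 18.3%). Those lower whichever MONO library was left out numbered 7 in TSW (DKC1, FBL, MRTO4, NCL, NOP16, NOP58 and RRS1) and 9 in CO (MRTO4, NCL, NIP7, NOC4L, NOP56, NOP58, PES1, RRP9 and RRS1).

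In this line the changes also followed transcript length. Across the 41 genes, which are not independent replicates, the rank correlation of the log2 fold change with length was 0.61 between CO and MONO and 0.53 between TSW and MONO, against 0.32 and 0.23 over all genes tested. Leaving out MONO replicate 1 brought it to 0.48 and 0.34, and to 0.12 and 0.00 over all genes. The 16 genes lower in CO had a median length of 2094 bases and the other 25 one of 3531. In RPMI8226 the correlation was 0.14 for CO and 0.06 for TSW. After the loess correction named above, 19 genes were lower at adjusted p alone in MM.1S TSW (46.3%, beside 19.8% of all genes, which had been 12.9%) and 15 in CO (36.6%, beside 20.4%, which had been 15.0%), 1 and 0 were called, and the medians were -0.21 and -0.16.

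**Figure D2:**
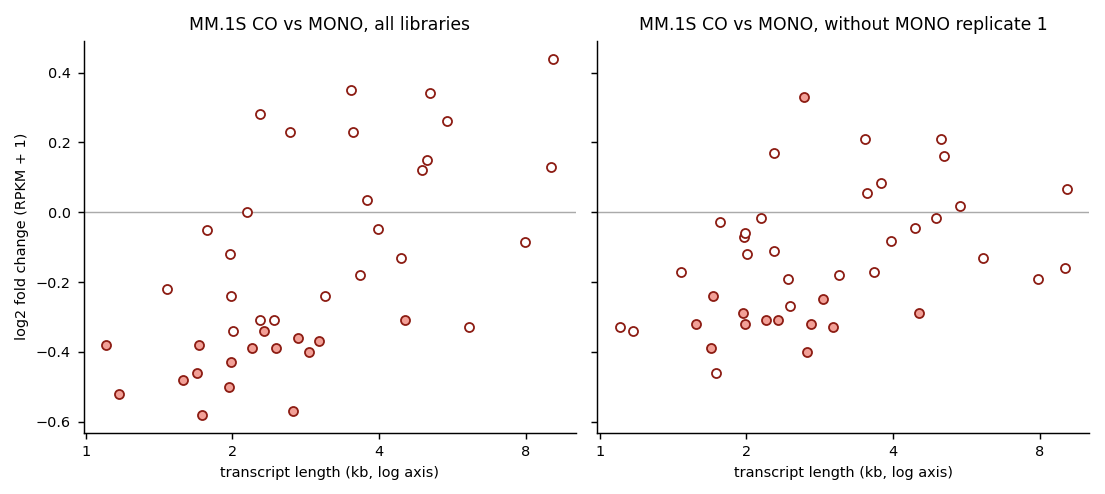
Log2 fold change of each of the 41 genes between MM.1S CO and MONO against its transcript length in kilobases, with all libraries and without MONO replicate 1, where pale filled points are past an adjusted p of 0.05. Shorter transcripts have the lower values, with a rank correlation of 0.61 that becomes 0.48 without that library.

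Of the genes at RNA polymerase I, 5 are in the list: the polymerase subunits POLR1A, POLR1B and POLR1C, the treacle gene TCOF1, and NOLC1, whose product is a nucleolar chaperone of snoRNPs. NOLC1 (gene ID 9221, chr10:102152389-102163870), the most abundant, stood at 133, 149.9 and 137 RPKM in MM.1S MONO, 131, 130.2 and 129.5 in TSW and 138, 136 and 131 in CO. It stood at 112 and 113 RPKM in RPMI8226 MONO, 57.7 and 59.2 in TSW and 44.2 and 44.7 in CO. In MM.1S the CO values overlapped MONO and those of TSW lay just below, while in RPMI8226 the groups were apart and in the order MONO, TSW, CO. Its log2 fold change in RPMI8226 was -0.93 ± 0.064 (adjusted p = 6.38e-07) between TSW and MONO and -1.32 ± 0.064 (adjusted p = 4.11e-08) between CO and MONO. In MM.1S it was -0.10 ± 0.084 (adjusted p = 0.395) and -0.047 ± 0.084 (adjusted p = 0.688), and the latter turned positive with quantile normalization (0.088) and without MONO replicate 2 (0.0036). All 5 genes were called lower in RPMI8226 CO and 4 in TSW, with medians of -1.32 and -0.88, and 0 were called in MM.1S, where the medians were -0.084 and -0.10.

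Abundant nucleolar proteins and the snoRNP core make up 8 genes. Nucleolin, the product of NCL (gene ID 4691, chr2:231453531-231464484), binds the ribosomal RNA precursor, and its gene was the most abundant of the 41 by mean, at 480.5, 443 and 442 RPKM in MM.1S MONO, 308, 313 and 325 in TSW and 367, 346 and 353 in CO. Its RPMI8226 levels were 653 and 619.5 RPKM in RPMI8226 MONO, 257 and 262 in TSW and 229 and 213 in CO. In both lines all TSW and CO values lay below all MONO values, and CO was above TSW in MM.1S and below it in RPMI8226. The RPMI8226 log2 fold change was -1.29 ± 0.066 (adjusted p = 9e-08) in TSW and -1.52 ± 0.066 (adjusted p = 2.21e-08) in CO against MONO.

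NPM1 (gene ID 4869, chr5:171387116-171410900) encodes nucleophosmin, a histone and ribosome chaperone of the outer nucleolus. It measured 462, 258 and 357 RPKM in MM.1S MONO, 273, 242 and 279 in TSW and 288, 284 and 272 in CO. It measured 493 and 457 RPKM in RPMI8226 MONO, 163 and 146 in TSW and 179.6 and 181 in CO. MM.1S MONO was spread widely, with replicate 2 below several TSW and CO values, whereas in RPMI8226 the groups were apart and CO was above TSW. The RPMI8226 log2 fold change was -1.62 ± 0.074 (adjusted p = 3.77e-08) in TSW and -1.39 ± 0.074 (adjusted p = 7.4e-08) in CO against MONO. NPM1 has 50 annotated pseudogenes named after it, of which 0 are in the tables, so its level is uncertain to the extent that reads are shared. Of the 41 genes, 11 have such pseudogenes, and for 1, PA2G4, a pseudogene is in the tables: PA2G4P4 held 26.8 to 45.1 RPKM in MM.1S, and in RPMI8226 41.5 and 40.6 in MONO, 17.1 and 18.4 in TSW and 20.2 and 20.2 in CO, lower in coculture as PA2G4 was.

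NOP56 (gene ID 10528, chr20:2652632-2658393) encodes a scaffold of the box C/D snoRNPs that guide methylation of ribosomal RNA. The MM.1S libraries had 183, 167 and 144 RPKM in MM.1S MONO, 132, 134 and 127 in TSW and 118, 132 and 124 in CO. The RPMI8226 libraries had 154 and 146 RPKM in RPMI8226 MONO, 62.7 and 65.8 in TSW and 40.6 and 42.6 in CO. All TSW and CO values were below all MONO values in both lines, and only in RPMI8226 were all CO values below all TSW values. In RPMI8226 NOP56 changed by -1.21 ± 0.068 (adjusted p = 1.61e-07) in TSW and -1.83 ± 0.068 (adjusted p = 7.91e-09) in CO against MONO. DKC1 (gene ID 1736, chrX:154762864-154777689) encodes dyskerin, the pseudouridine synthase of the box H/ACA snoRNPs. It was found at 58.97, 57.5 and 54.6 RPKM in MM.1S MONO, 46.00, 43.2 and 40.96 in TSW and 41.9, 47.5 and 47.9 in CO. For the other line the values were 82.3 and 83.5 RPKM in RPMI8226 MONO, 40.01 and 41.6 in TSW and 28.3 and 26.3 in CO. The groups were again apart from MONO in both lines, with CO and TSW overlapping in MM.1S. DKC1 changed in RPMI8226 by -1.0 ± 0.070 (adjusted p = 7.29e-07) in TSW and -1.57 ± 0.070 (adjusted p = 2.5e-08) in CO. Of these 8 genes, 7 were called lower in each RPMI8226 coculture, with medians of -1.12 and -1.45, and in MM.1S 1 was called in TSW and 0 in CO, with medians of -0.40 and -0.35.

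The 12 genes of the small subunit serve the processome, the large particle that folds and cuts the precursor, and the later maturation of 40S. IMP4 (gene ID 92856, chr2:130342897-130347967), a processome protein that brings the U3 snoRNA to the precursor, was the most abundant of them in MM.1S at 87.9, 86.5 and 70.8 RPKM in MM.1S MONO, 74.2, 78.7 and 64.2 in TSW and 61.9, 70.1 and 55.4 in CO. In the other line it had 59.7 and 57.4 RPKM in RPMI8226 MONO, 27.02 and 31.8 in TSW and 20.1 and 25.98 in CO. Its CO values were below MONO in both lines, while TSW overlapped MONO in MM.1S. The RPMI8226 log2 fold change was -0.97 ± 0.12 (adjusted p = 3.43e-05) in TSW and -1.32 ± 0.12 (adjusted p = 2.75e-06) in CO. RRP9 (gene ID 9136, chr3:51933429-51941904), whose promoter is printed above, encodes a protein of the U3 snoRNP itself. Levels were 45.7, 35.9 and 29.4 RPKM in MM.1S MONO, 27.8, 27.4 and 25.8 in TSW and 23.5, 26.8 and 27.7 in CO. Levels were 34.9 and 33.5 RPKM in RPMI8226 MONO, 11.7 and 12.9 in TSW and 8.48 and 8.04 in CO. No TSW or CO value reached the lowest MONO value in either line, and MM.1S MONO replicate 1 was the highest of all. RRP9 changed in RPMI8226 by -1.41 ± 0.083 (adjusted p = 2.26e-07) in TSW and -1.93 ± 0.083 (adjusted p = 1.96e-08) in CO.

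UTP20 (gene ID 27340, chr12:101280105-101386618), the other gene with its promoter printed, encodes a very large processome scaffold and has the longest transcript of the 41 after HEATR1. Its values were 10.97, 20.6 and 21.1 RPKM in MM.1S MONO, 17.1, 16.4 and 16.97 in TSW and 17.9, 17.7 and 19.95 in CO. They were 24.6 and 25.9 RPKM in RPMI8226 MONO, 8.40 and 7.77 in TSW and 5.84 and 6.47 in CO. MM.1S MONO replicate 1 was far below the other MONO libraries and lower than every TSW and CO value, and in RPMI8226 the groups were apart. In RPMI8226 UTP20 changed by -1.53 ± 0.087 (adjusted p = 1.78e-07) in TSW and -1.88 ± 0.087 (adjusted p = 3.33e-08) in CO. NOC4L (gene ID 79050, chr12:132144457-132152468) encodes a factor that accompanies the 40S precursor out of the nucleolus. It stood at 10.9, 9.35 and 9.22 RPKM in MM.1S MONO, 7.62, 6.87 and 7.69 in TSW and 6.97, 8.20 and 5.58 in CO. The other line held 19.7 and 19.8 RPKM in RPMI8226 MONO, 9.48 and 11.3 in TSW and 7.27 and 7.52 in CO. All cocultured values were below MONO in both lines. The RPMI8226 log2 fold change of NOC4L was -0.87 ± 0.093 (adjusted p = 1.6e-05) in TSW and -1.31 ± 0.093 (adjusted p = 6.03e-07) in CO. All 12 genes of this group were called lower in RPMI8226 CO and 10 in TSW, with medians of -1.26 and -0.92, and 0 in MM.1S, with medians of -0.13 in both.

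The 16 genes of large subunit assembly include PA2G4 (gene ID 5036, chr12:56104559-56113910), which encodes a growth regulator that binds 60S particles and was the most abundant of them. MM.1S had 255, 198 and 214 RPKM in MM.1S MONO, 260.4, 242 and 242 in TSW and 262, 253 and 263 in CO. RPMI8226 had 225 and 219 RPKM in RPMI8226 MONO, 118 and 125 in TSW and 118 and 109.6 in CO. The MM.1S groups overlapped, and in RPMI8226 TSW and CO overlapped each other and lay below MONO. PA2G4 changed in RPMI8226 by -0.87 ± 0.068 (adjusted p = 1.71e-06) in TSW and -0.96 ± 0.068 (adjusted p = 5.61e-07) in CO. MRTO4 (gene ID 51154, chr1:19251805-19260128) encodes a placeholder for the stalk protein of the large subunit, and its E-box site is printed above. Its levels were 71.8, 51.5 and 47.7 RPKM in MM.1S MONO, 37.6, 38.2 and 33.5 in TSW and 33.2, 41.5 and 38.1 in CO. Its levels were 67.6 and 71.4 RPKM in RPMI8226 MONO, 21.8 and 24.2 in TSW and 13.4 and 15.1 in CO. All cocultured values lay below MONO in both lines, with MM.1S MONO replicate 1 the highest. The RPMI8226 changes of MRTO4 were -1.56 ± 0.085 (adjusted p = 1.36e-07) in TSW and -2.22 ± 0.085 (adjusted p = 9.75e-09) in CO, the latter the largest of the 41.

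NIP7 (gene ID 51388, chr16:69339772-69343106), needed to process the precursor of the large subunit RNAs, stood at 37.3, 35.7 and 34.1 RPKM in MM.1S MONO, 31.3, 28.2 and 29.7 in TSW and 29.8, 27.8 and 26.4 in CO. NIP7 stood at 52.8 and 48.5 RPKM in RPMI8226 MONO, 28.5 and 27.8 in TSW and 22.6 and 23.9 in CO. Cocultured values were below MONO throughout. Its RPMI8226 log2 fold change was -0.82 ± 0.075 (adjusted p = 5.02e-06) in TSW and -1.09 ± 0.075 (adjusted p = 4.61e-07) in CO. NOP16 (gene ID 51491, chr5:176383946-176388598), a nucleolar protein of early 60S particles, had 61.8, 52.8 and 44.5 RPKM in MM.1S MONO, 41.1, 34.6 and 35.03 in TSW and 37.1, 43.9 and 35.8 in CO. NOP16 had 50.1 and 47.9 RPKM in RPMI8226 MONO, 18.5 and 19.97 in TSW and 11.8 and 12.7 in CO. The groups did not overlap MONO in either line. NOP16 changed in RPMI8226 by -1.31 ± 0.078 (adjusted p = 2.6e-07) in TSW and -1.92 ± 0.078 (adjusted p = 1.44e-08) in CO. RRS1 (gene ID 23212, chr8:66429014-66430733) helps to place the 5S RNA particle, and held 60.5, 47.2 and 44.01 RPKM in MM.1S MONO, 34.2, 34.2 and 36.1 in TSW and 40.6, 37.5 and 36.97 in CO. RRS1 held 39.3 and 34.6 RPKM in RPMI8226 MONO, 13.8 and 15.6 in TSW and 11.2 and 12.4 in CO. MONO was highest in both lines, and CO was above TSW in MM.1S and below it in RPMI8226. The RPMI8226 change of RRS1 was -1.27 ± 0.095 (adjusted p = 1.21e-06) in TSW and -1.56 ± 0.095 (adjusted p = 1.95e-07) in CO. Of the 16 genes, 15 were called lower in each RPMI8226 coculture, with medians of -0.86 and -1.32, and in MM.1S 1 was called in TSW and 0 in CO, with medians of -0.20 and -0.28.

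**Figure D3:**
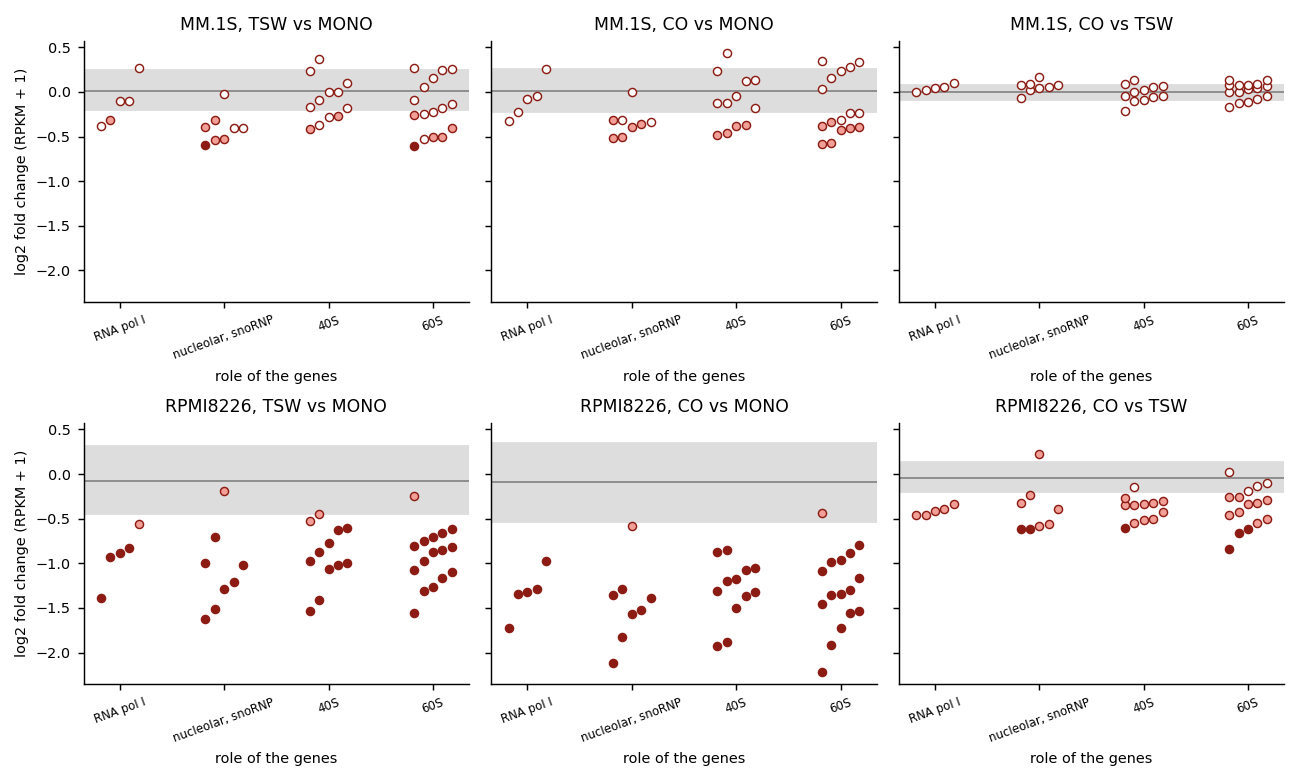
Log2 fold change of each of the 41 genes by role, in each line and comparison, where dark points were called, pale points were past the adjusted p alone and white points were not, and the band and line give the quartiles and the median of all genes tested. In RPMI8226 all 41 points against MONO lie below the median of all genes.

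The MM.1S tests of TSW against MONO passed the adjusted p for 8 of the genes whose levels in each library are given above. NCL changed by -0.53 ± 0.092 (adjusted p = 0.00206), RRS1 by -0.51 ± 0.11 (adjusted p = 0.00789) and DKC1 by -0.39 ± 0.088 (adjusted p = 0.00891), and these stayed past the adjusted p in all 19 other settings. MRTO4, called at -0.61 ± 0.15 (adjusted p = 0.011), had an adjusted p of 0.0512 without TSW replicate 3, the highest of a range of 0.00379 to 0.0512. The other gene called was FBL at -0.59 ± 0.16 (adjusted p = 0.02), which encodes fibrillarin, the methyltransferase of box C/D snoRNPs. Without MONO replicate 1 neither MRTO4 nor FBL was called (-0.44 and -0.41), and FBL did not pass the adjusted p without TSW replicate 2 (0.0742) or 3 (0.0715). NOP16 stood at -0.50 ± 0.13 (adjusted p = 0.0165) and passed in 17 of the 19 settings (0.00498 to 0.0699), but not without TSW replicates 2 or 3. NOP56 had -0.32 ± 0.10 (adjusted p = 0.039) and passed in 10 (0.00596 to 0.129), not when MONO replicate 1 or 2, any TSW library or CO replicate 3 was left out. NIP7, at -0.26 ± 0.086 (adjusted p = 0.0468), passed in 9 (0.0163 to 0.178) and was lost without any library other than MONO replicates 1 and 3. RRP9, at -0.42 ± 0.14 (adjusted p = 0.0454), passed in 7 (0.00433 to 0.137) and was lost without any library other than MONO replicate 3, with -0.26 when MONO replicate 1 was left out.

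Not past it in TSW were NOC4L at -0.37 ± 0.13 (adjusted p = 0.0552), IMP4 at -0.17 ± 0.12 (adjusted p = 0.319), PA2G4 at 0.16 ± 0.11 (adjusted p = 0.279), NPM1 at -0.40 ± 0.17 (adjusted p = 0.111) and UTP20 at -0.0035 ± 0.19 (adjusted p = 0.992). Leaving out a library changed this for NOC4L (adjusted p of 0.0396 without CO replicate 3, and also past it without CO replicate 2), for PA2G4 (0.0297 without MONO replicate 1), for NPM1 (-0.62 at an adjusted p of 0.0087 without MONO replicate 2, range 0.0087 to 0.288) and for UTP20 (0.0121 without MONO replicate 1, where its log2 fold change was -0.29, range 0.0121 to 1). Its sign turned without MONO replicate 2 (0.13), MONO replicate 3 (0.15) or TSW replicate 2 (0.015). Without MONO replicate 1 NPM1 had -0.20 in TSW and -0.11 in CO. IMP4 ran from -0.27 without MONO replicate 3 to -0.089 without TSW replicate 3. The ranges for NOC4L and PA2G4 were 0.0396 to 0.176 and 0.0297 to 0.601.

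Between MM.1S CO and MONO, 10 of the genes with levels in each library above passed, and the rest of the 16 were BYSL, FBL, GRWD1, NOP58, PES1 and PPAN. NIP7 changed by -0.34 ± 0.086 (adjusted p = 0.0134) and was lost only without CO replicate 3 among the libraries (0.00232 to 0.0618 over the 19 settings), MRTO4 by -0.57 ± 0.15 (adjusted p = 0.014), lost without CO replicate 1 (0.00595 to 0.0637), and NCL by -0.36 ± 0.092 (adjusted p = 0.0153), lost without CO replicate 3 (0.0549, range 0.00288 to 0.161). NOP56 at -0.39 ± 0.10 (adjusted p = 0.0166) and NOC4L at -0.46 ± 0.13 (adjusted p = 0.0202) were lost without CO replicate 1 or 3 (0.00365 to 0.0619 and 0.0116 to 0.0843). DKC1 at -0.31 ± 0.088 (adjusted p = 0.022) was lost without MONO replicate 2 or CO replicate 1 (0.00764 to 0.083). RRS1 at -0.38 ± 0.11 (adjusted p = 0.0289) and RRP9 at -0.48 ± 0.14 (adjusted p = 0.0253) were lost without any 1 CO library (0.0105 to 0.0966 and 0.00354 to 0.0982), and without MONO replicate 1 they had -0.24 and -0.32. NOP16 at -0.43 ± 0.13 (adjusted p = 0.0294) was lost without MONO replicate 2 or CO replicates 1 or 3 (0.00788 to 0.109). IMP4 at -0.38 ± 0.12 (adjusted p = 0.0372) was lost without MONO replicates 1 or 2, TSW replicates 1 or 2, or CO replicates 1 or 3 (0.144 at most among these, range 0.0121 to 0.17). PA2G4 at 0.23 ± 0.11 (adjusted p = 0.125), NPM1 at -0.31 ± 0.17 (adjusted p = 0.191) and UTP20 at 0.13 ± 0.19 (adjusted p = 0.635) did not pass, though PA2G4 did without MONO replicate 1 (0.0103, range 0.00507 to 0.323) and NPM1 without MONO replicate 2 (-0.53, adjusted p of 0.0168, range 0.0168 to 0.575). The value of UTP20 turned negative without MONO replicate 1 (-0.16) and with the loess correction (-0.14).

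Contact with the stroma, asked by CO against TSW, gave little in MM.1S. There limma called 0 of the 41 genes lower and 0 higher, beside 0.0394% and 0.374% of all genes tested, and the adjusted p alone also gave 0 and 0, beside 0.0492% and 0.384%. The number with an unadjusted p under 0.05 was 0 as well, and voom called 0. Log2 fold changes ran from -0.21 for IMP4 to 0.17 for NCL with a median of 0.040, against -0.00080 over all genes and a standard deviation between replicates of 0.0925. In RPMI8226, 6 genes were called lower and 0 higher, beside 2.39% and 1.90% of all genes, and 35 were lower and 1 higher at adjusted p alone, beside 17.5% and 10.1%. The median was -0.39 against -0.039 over all genes, with a standard deviation between replicates of 0.0511. Since both groups are also compared with the same MONO libraries, these values are not independent of those above.

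The 6 genes called between RPMI8226 CO and TSW were PPAN at -0.84 ± 0.12 (adjusted p = 0.00105), MRTO4 at -0.66 ± 0.085 (adjusted p = 0.000738), NOP56 at -0.62 ± 0.068 (adjusted p = 0.0003), NOP16 at -0.61 ± 0.078 (adjusted p = 0.000699), LYAR at -0.61 ± 0.099 (adjusted p = 0.00211) and BYSL at -0.60 ± 0.095 (adjusted p = 0.00186). PPAN encodes a factor of the early large subunit, LYAR a nucleolar zinc finger protein, and BYSL bystin, which acts on the small subunit. The calls depended on single libraries: MRTO4, NOP56, NOP16 and BYSL were lost without TSW replicate 2 or without CO replicate 1. Without CO replicate 1, MRTO4 and NOP56 had -0.58 and NOP16 had -0.56. The median of the 41 genes was -0.41 without TSW replicate 1, beside -0.046 over all genes. It was -0.39 without TSW replicate 2 and without CO replicate 1, beside -0.037 and -0.032. With a single library left in a group, limma assumes that it varies like the others. The number called was 2 with median-of-ratios scaling (beside 1.71% of all genes) or loess correction for GC content and length (1.25%), and 3 with quantile normalization (1.71%). Over all genes 247 were called lower and 196 higher, so 55.8% of the calls were lower. Median-of-ratios scaling turned this to 176 and 241 (42.2%), quantile normalization to 176 and 261 (40.3%), and the loess correction to 129 and 154 (45.6%). With these 3 settings the median of the 41 genes was -0.35, -0.32 and -0.35. NPM1 was the 1 gene higher, at 0.23 ± 0.074 (adjusted p = 0.044), with an adjusted p of 0.0119 to 0.182 over 16 settings, and it did not pass when any library other than TSW replicate 1 was left out.

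Of the other genes described above, NOLC1 at -0.39 ± 0.064 (adjusted p = 0.00219), DKC1 at -0.56 ± 0.070 (adjusted p = 0.000569) and RRP9 at -0.52 ± 0.083 (adjusted p = 0.0019) were lower in RPMI8226 CO than in TSW in all 16 settings. NOC4L at -0.43 ± 0.093 (adjusted p = 0.00774) and UTP20 at -0.35 ± 0.087 (adjusted p = 0.0161) were lower but did not pass without CO replicate 1 or 2 (0.00226 to 0.086 and 0.000908 to 0.15 over the settings). NIP7 at -0.26 ± 0.075 (adjusted p = 0.0258) was lost without any 1 of the TSW and CO libraries (0.00423 to 0.176), IMP4 at -0.34 ± 0.12 (adjusted p = 0.0494) without any library other than TSW replicate 1 and CO replicate 2 (0.0123 to 0.44, with -0.17 without CO replicate 1 and -0.52 without CO replicate 2), and NCL at -0.23 ± 0.066 (adjusted p = 0.0281) and RRS1 at -0.29 ± 0.095 (adjusted p = 0.044) without any library other than TSW replicate 1 (0.00932 to 0.178 and 0.0259 to 0.373). PA2G4 did not pass at -0.10 ± 0.068 (adjusted p = 0.321), and its value was 0.028 with quantile normalization, -0.15 without CO replicate 1, -0.046 without CO replicate 2 and -0.050 without TSW replicate 2.

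**Figure D4:**
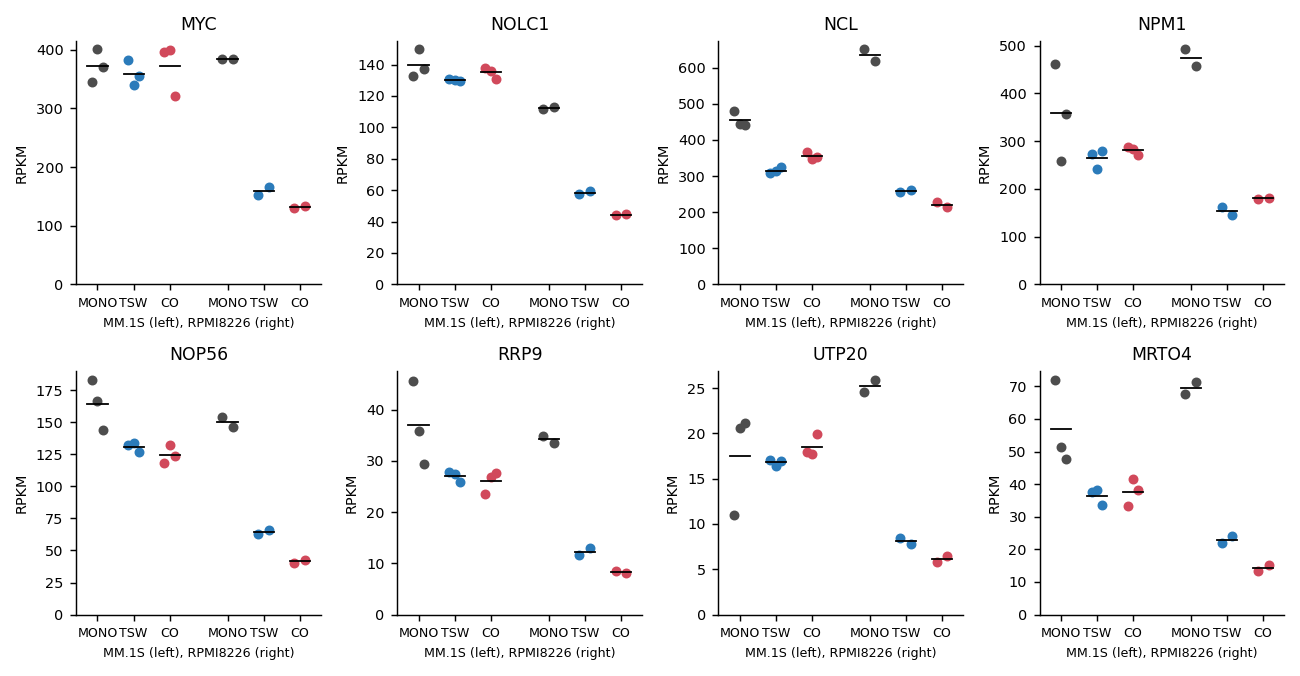
Level in RPKM of MYC and 7 of the 41 genes in each of the 15 libraries, where dots are libraries and lines are group means. In RPMI8226 the TSW and CO dots lie below the MONO dots in all 8 panels, whereas MYC shows overlapping groups in MM.1S.

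MYC (gene ID 4609, chr8:127735434-127742951), the transcription factor of the network above, is not in the list of 41. It stood at 345, 402 and 371 RPKM in MM.1S MONO, 382, 340.3 and 355 in TSW and 396, 399.6 and 321 in CO. The other line had 384 and 384 RPKM in RPMI8226 MONO, 152 and 166 in TSW and 131 and 133 in CO. The MM.1S groups overlapped, and the RPMI8226 groups were apart with MONO the highest. MYC changed in RPMI8226 by -1.27 ± 0.066 (adjusted p = 9.92e-08) in TSW and -1.53 ± 0.066 (adjusted p = 2.05e-08) in CO against MONO. Between CO and TSW of that line it had -0.26 ± 0.066 (adjusted p = 0.0161), which did not pass without TSW replicate 2, CO replicate 1 or CO replicate 2 (0.00507 to 0.138 over 16 settings). In MM.1S the values were -0.051 ± 0.12 (adjusted p = 0.773) and -0.0068 ± 0.12 (adjusted p = 0.97), and they turned positive with quantile normalization (0.052 and 0.16) and without MONO replicate 2 (0.0054 and 0.050). The line whose nucleolar genes fell most was also the line in which MYC fell, a comparison of 2 lines that was not tested. MYC did not pass the adjusted p in MM.1S. There 13 and 16 of the 41 genes were lower at adjusted p alone in TSW and CO, and 0 higher. Over all genes of that line 12.9% and 15.0% were lower and 14.4% and 16.2% higher. These counts depended on single libraries, and a link with MYC was not tested.

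Counts in the lists below stand beside 17.9% called lower and 14.5% higher of all genes in RPMI8226 TSW, 22.9% and 16.4% in CO, 4.16% and 6.48% in MM.1S TSW, and 4.65% and 7.13% in CO. Those of CO against TSW stand beside 2.39% and 1.90% in RPMI8226 and 0.0394% and 0.374% in MM.1S. The MYC network is a list of 12 with MYC included, of which 11 were tested in MM.1S and 10 in RPMI8226. In RPMI8226, 1 was called lower, MYC itself, and 2 higher in TSW, and in CO MYC was again the 1 lower beside 3 higher, with medians of 0.26 and 0.14. MXD1, a MAX partner that opposes MYC, was higher in RPMI8226 at 0.62 (adjusted p = 8.11e-05) and 1.18 (adjusted p = 5.1e-07), and in MM.1S at 0.65 (adjusted p = 0.0269) in CO, where it was not called without MONO replicate 1 (0.38) or without any 1 CO library. In MM.1S 2 were called lower and 0 higher in TSW and 2 lower and 1 higher in CO, with medians of 0.013 and 0.0083, and MYCL had -0.88 (adjusted p = 6.73e-05) and -0.98 (adjusted p = 2.66e-05). Between CO and TSW 0 were called in either line, with medians of 0.032 in MM.1S and 0.015 in RPMI8226.

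Among 12 known MYC targets outside the nucleolus, 9 were called lower and 1 higher in RPMI8226 TSW and 9 lower and 0 higher in CO, with medians of -1.12 and -1.44. ODC1, which makes polyamines, had the largest fall in CO at -2.37 (adjusted p = 8.9e-10), and SRM of the same pathway had -1.98 (adjusted p = 5.49e-09). In MM.1S 0 were called lower and 1 higher in TSW and 0 and 0 in CO, with medians of -0.14 in both. CO against TSW gave 3 lower and 1 higher in RPMI8226 (median -0.41) and 0 and 0 in MM.1S (-0.025).

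The rest of the ribosome production pathway was read from lists of genes outside the 41. Of 12 other genes of RNA polymerase I and its factors, 5 were called lower in RPMI8226 TSW and 7 in CO, with 0 higher and medians of -0.53 and -0.76. The polymerase subunit POLR1E had -0.94 (adjusted p = 4.57e-06) and -1.33 (adjusted p = 2.7e-07), and UBTF, which opens ribosomal DNA, had -0.86 (adjusted p = 6.44e-06) and -0.92 (adjusted p = 2.76e-06). In MM.1S, 2 were called lower in TSW and 0 in CO (medians -0.043 and 0.010), and UBTF was 1 of these at -0.60 (adjusted p = 0.000945), though not without MONO replicate 1 (-0.56) or 2 (-0.58). Of 11 other snoRNP genes, 5 and 8 were called lower in RPMI8226 (medians -0.58 and -0.81) and 1 and 0 in MM.1S (-0.10 and -0.16), with 0 higher. GAR1, the H/ACA protein called in MM.1S TSW at -0.76 (adjusted p = 0.0335), had -1.12 (adjusted p = 7.51e-06) in RPMI8226 CO. The MM.1S call ended without MONO replicate 1 (-0.48), CO replicate 3 or any 1 TSW library.

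Of 44 other small subunit genes, 29 were called lower in RPMI8226 TSW and 38 in CO (medians -0.74 and -0.92) and 2 and 1 in MM.1S (-0.11 and -0.080), with 0 higher. UTP14A, a processome protein, changed by -1.80 (adjusted p = 4.12e-08) in RPMI8226 CO and had -0.077 (adjusted p = 0.454) in MM.1S CO. Of 40 other large subunit genes, 26 were called lower and 0 higher in RPMI8226 TSW and 34 lower and 1 higher in CO (medians -0.76 and -0.97), against 0 lower and 1 higher in each MM.1S comparison (-0.11 and -0.10). EBNA1BP2, an early 60S factor, had -1.88 (adjusted p = 5.59e-09) in RPMI8226 CO and -0.47 (adjusted p = 0.00691) in MM.1S CO. For 12 subunits and partners of the RNA exosome, which trims precursor ends, 3 and 7 were called lower in RPMI8226 (medians -0.30 and -0.75) and 0 and 0 in MM.1S (0.066 and 0.052), so the 3 of 12 in TSW stand beside 17.9% of all genes. CO against TSW in RPMI8226 called 1 lower of the polymerase list (median -0.15), 0 of the snoRNP list (-0.22), 1 of the small subunit list (-0.19), 0 lower and 1 higher of the large subunit list (-0.24) and 2 lower of the exosome list (-0.37). In MM.1S it called 0 in each of the 5 lists, with medians of 0.084, 0.016, 0.043, 0.014 and -0.063.

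**Figure D5:**
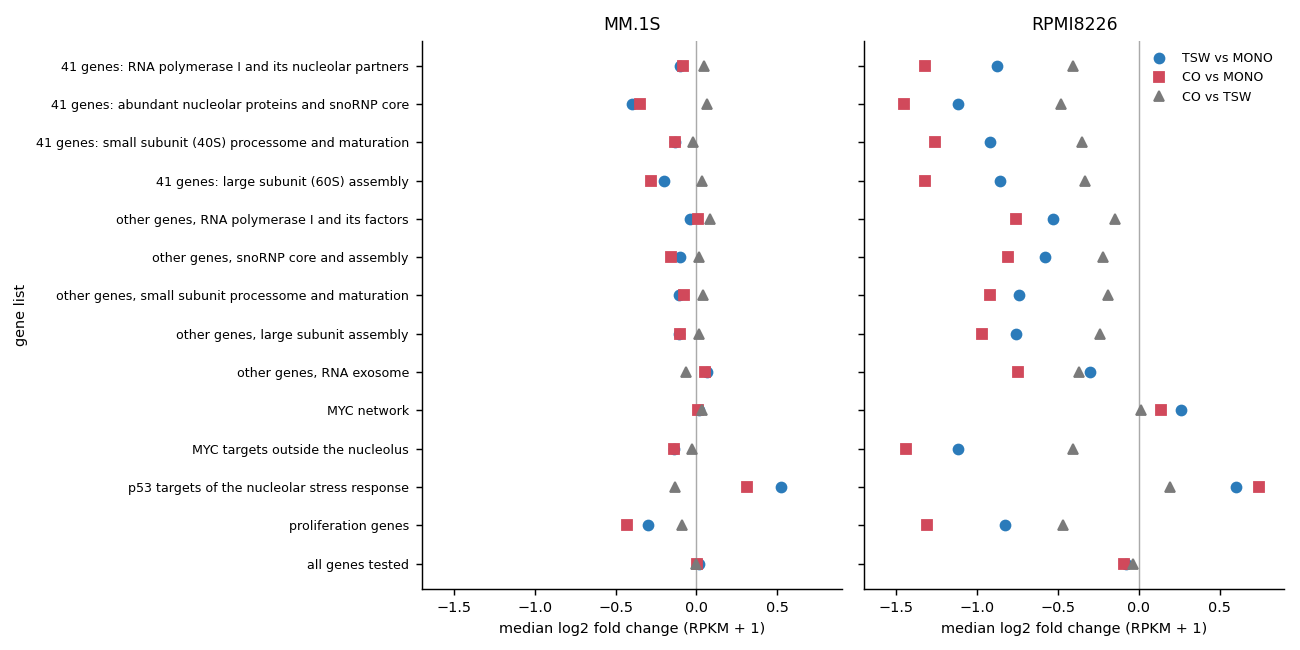
Median log2 fold change of each gene list in each line and comparison, for the 41 genes by role and for the other lists, beside the median of all genes tested. The RPMI8226 medians against MONO run from -1.45 for the snoRNP core group in CO upward, and MM.1S medians of the same lists stay closer to 0.

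Genes that respond to p53, which is stabilized when ribosome assembly is disturbed, and proliferation genes were looked at beside them. Of 10 p53 targets, 5 of 10 tested were called higher in MM.1S TSW and 4 in CO with 0 lower (medians 0.52 and 0.31), and of 8 tested in RPMI8226 4 were higher and 1 lower in each coculture (0.60 and 0.74). CDKN1A, which encodes the cell cycle inhibitor p21, rose in MM.1S at 2.27 (adjusted p = 4.87e-07) in TSW and 1.58 (adjusted p = 5.54e-06) in CO, and in RPMI8226 at 2.03 (adjusted p = 2.32e-08) and 2.05 (adjusted p = 1.61e-08). CO against TSW called 1 lower of them in MM.1S, CDKN1A at -0.69 (adjusted p = 0.0353) and not called without any 1 TSW library or CO replicate 1 or 3, and 0 in RPMI8226 (medians -0.13 and 0.19). Of 12 proliferation genes, 8 and 9 were called lower and 0 higher in RPMI8226 (-0.83 and -1.31), with MCM2, a subunit of the replicative helicase, at -2.13 (adjusted p = 1.3e-08) in CO. In MM.1S 2 were lower and 2 higher in TSW and 4 lower and 2 higher in CO (-0.30 and -0.43), with MCM4 of the same helicase at -0.63 (adjusted p = 0.000731) and -0.65 (adjusted p = 0.000568), of which the first was not called without MONO replicate 2 (-0.56). CO against TSW gave 2 lower in RPMI8226 (-0.47) and 0 in MM.1S (-0.092).

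Markers of the stromal cells moved with CO. All 18 HS5 markers of the list are in the tables. In MM.1S they summed to 7.22, 9.58 and 9.52 RPKM in MONO, 6.33, 7.29 and 7.08 in TSW, and 119, 133 and 109 in CO, where MMP1 was the most abundant at 44.5, 46.9 and 41.04. In RPMI8226 the sums were 3994 and 4314 in MONO, 1682 and 1966 in TSW, and 2072 and 2263 in CO, nearly all of it FN1, already at 3989.7 and 4309.9 RPKM in MONO of this line. Without FN1 they were 4.11 and 3.91, 4.04 and 4.15, and 64.5 and 93.9, with MMP1 at 35.1 and 53.2 in CO. MMP1, COL1A2, COL3A1 and LUM were at 0 in every MONO and TSW library, and POSTN was at 0 in all 15. The paper noted a minimal level of HS5 cells among those sorted from the lower chamber, and left signature genes of stromal cells out of its analyses. No genes were left out on that ground here. The part of stromal RNA in the CO values of the 41 genes was not tested. All 10 plasma cell and myeloma markers were above 0 in every library, with JCHAIN the most abundant. They summed to 5936, 5008 and 5251 RPKM in MM.1S MONO, 4086, 3965 and 3953 in TSW and 3746, 3907 and 3584 in CO, and to 2486 and 2400.5, 4456 and 4274, and 4540.1 and 4462 in RPMI8226, so in MM.1S the sum, of which JCHAIN was the largest part, was lower in coculture, and in RPMI8226 it was higher in coculture while the nucleolar genes were lower. Single markers moved both ways. In MM.1S all TSW libraries were above all MONO libraries for 4 of the 10 (IRF4, PRDM1, XBP1 and POU2AF1) and below for 2, and all CO libraries were above for 3 and below for 3, with TNFRSF17 and JCHAIN below in each. In RPMI8226 all TSW libraries were above for 7 and below for 3, and all CO libraries were above for 8 and below for 2, among them TNFRSF17 at 72.95 and 68.8 RPKM in MONO, 6.40 and 4.43 in TSW and 4.13 and 3.96 in CO. SLAMF7, counted below in TSW and above in CO of RPMI8226, held only 0.0184 to 0.104 RPKM in that line. The share of all genes separated in this way is not given here.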

How the data were processed

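RNA-Seq of 15 libraries was analysed: MM.1S in MONO, TSW and CO (3 libraries each) and RPMI8226 in the same conditions (2 each). The authors aligned reads to hg38 with Subread, counted PETs on RefSeq transcripts with featureCounts and made RPKM. The deposited tables, 1 per line, hold log2(RPKM + 1) plus 0.0001, whereas the planned design had taken them as RPKM. The offset of 0.0001 was subtracted. The study modelled PET counts, and limma was used here because the values are log2. ATAC data were not analysed here.

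Each line was fitted with limma 3.58.1 in R 4.3.3 (lmFit, contrasts.fit, eBayes with a mean-variance trend), with 3 conditions in 1 fit, on genes of mean RPKM of at least 1, and p-values were adjusted by Benjamini-Hochberg within each of the 6 comparisons (3 in each line). The scripts were tested on simulated data. Whole PETs were worked back from the steps between values of a library, with a tolerance of 0.05 PETs that 100% of the 218078 nonzero entries met, and served for depth and for voom.

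The members and gene lists were chosen with earlier results of these data known. Genes described singly are the most abundant of each role, the 5 of smallest adjusted p in each comparison with MONO, and MYC, and up to 4 genes of each other list are named in the same way. The others were named after their values were seen. Alternatives were a pseudocount of 0.1, no filter or a minimum of 5 RPKM, median-of-ratios scaling, quantile normalization, a replicate block, 2 conditions per fit, no trend, no fold threshold, voom, leaving out each library, and a loess correction (span 0.5) for GC content and length. The loess correction was added after the data were seen and left genes without a GC value uncorrected. Gene positions and promoters are from RefSeq GRCh38.p14. Python 3.11.15 with pandas 2.3.3, numpy 2.4.6, scipy 1.17.1 and matplotlib 3.10.9 made the tables and plots.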

Additional observations from a re-analysis of the deposited data

Results flagged for a closer look

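Of the 41 genes, 8 are flagged because all libraries of 1 group lay above all of the other in MM.1S and below them in RPMI8226, and these differences between lines were not tested. By the sign of the log2 fold change alone, 9 of the 41 were above 0 in MM.1S and below 0 in RPMI8226 between TSW and MONO, 12 between CO and MONO and 26 between CO and TSW. The share of all genes with either pattern is not given here, so whether these counts are unusual was not tested. Between TSW and MONO, WDR12 had 0.25 in MM.1S and -0.66 in RPMI8226, and RRP1B 0.26 and -1.08. Between CO and MONO the values were 0.28 and -0.99 for WDR12, 0.34 and -1.34 for RRP1B, and 0.35 and -0.79 for NOC3L. Without MONO replicate 1 the MM.1S values were 0.14 for WDR12 and 0.090 for RRP1B in TSW, and 0.17, 0.16 and 0.21 in CO. Between CO and TSW they were 0.053 and -0.39 for NOLC1, 0.17 and -0.23 for NCL, 0.13 and -0.35 for UTP20, 0.13 and -0.13 for DDX18, and 0.13 and -0.29 for RRS1. Without CO replicate 3 the MM.1S values of UTP20 and DDX18 were both 0.079, without CO replicate 1 that of NOLC1 was 0.035, and without TSW replicate 1 that of DDX18 in RPMI8226 was -0.050. None of the MM.1S values passed the adjusted p with all libraries, but without MONO replicate 3 WDR12 did in TSW (0.036) and CO (0.0224), as did RRP1B (0.0363) and NOC3L (0.0334) in CO, and RRP1B in CO also without MONO replicate 2 (0.0433).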

How the results depend on the processing

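In RPMI8226 TSW against MONO the 36 called lower became 33 with quantile normalization and also with median-of-ratios scaling, 35 with the loess correction, 37 with voom and 34 to 36 with 1 library left out, and the 41 past the adjusted p became 39 at the fewest. In CO the 39 called became 38 with a mean of at least 5 RPKM, where 40 genes were tested, and 39 or 40 otherwise. The median of the 41 genes moved from -0.93 in TSW to -0.86 with median-of-ratios scaling, -0.90 with the loess correction, and -0.98 to -0.91 when 1 library was left out. In CO it moved from -1.32 to -1.21, -1.23 (quantile normalization) and -1.19 (loess). For CO against TSW the 6 called lower (beside 2.39% of all genes) became 2 with median-of-ratios scaling (1.71%), 3 with quantile normalization (1.71%) and 2 with loess (1.25%). With no fold change threshold 35 were lower and 1 higher, beside 17.5% and 10.1%. The number called also moved when 1 library was left out. The median was -0.32 with quantile normalization and -0.41 to -0.39 with 1 library left out. In MM.1S TSW against MONO the 2 called lower became 1 with quantile normalization or loess, 13 with no fold change threshold, and 0 to 6 with 1 library left out. In MM.1S CO against MONO the 0 became 1 with a pseudocount of 0.1, median-of-ratios scaling, quantile normalization or voom, 16 with no fold change threshold, and 0 to 4 with 1 library left out. Signs turned for MYC in MM.1S TSW (0.052 with quantile normalization, -0.11 to 0.0054 with 1 library left out) and CO (0.16 with quantile normalization, 0.072 with loess, -0.062 to 0.10 with 1 left out), NOLC1 in MM.1S CO (0.088 with quantile normalization, -0.082 to 0.0036 with 1 left out), UTP20 in MM.1S TSW (-0.29 to 0.15 with 1 left out) and CO (-0.14 with loess, -0.16 to 0.28 with 1 left out), and PA2G4 in RPMI8226 CO against TSW (0.028 with quantile normalization). The cause was not tested. The E-box share before the start was 9.76%. With a replicate block, genes called lower numbered 2, 0 and 0 in MM.1S and 36, 39 and 6 in RPMI8226. At adjusted p alone the block left 10 lower in MM.1S TSW against MONO (24.4%, beside 12% of all genes) and 13 in CO against MONO (31.7%, beside 13.8%). Of 75 gene results, leaving out a library kept 447 values on their side of the threshold, took 78 that had passed back over it and 7 past it, and turned 8, and other settings kept 686, took 54 back and 4 past it, and turned 6. The lowest depth was 9008909 PETs, in MM.1S MONO replicate 1, and what depth limits was not tested.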
